A study of Mus musculus with 6 samples.

Results

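The SR splicing factor family was followed through 6 RNA-seq libraries of sorted mouse forebrain cells. Its members were taken by name from the raw count table, as the 10 genes Srsf1, Srsf2, Srsf3, Srsf4, Srsf5, Srsf6, Srsf7, Srsf9, Srsf10 and Srsf11, out of 38561 genes listed. All 10 passed the filter on low counts, which left 16495 genes. None of the 10 was chosen for its values.

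The cells came from C57BL/6 embryos at E11.5 (embryonic day), and the labels call them medial ganglionic eminence (MGE) cells, the ventral forebrain progenitors and young neurons that give rise to many cortical interneurons. The 4 control libraries were Nkx2.1-Cre with the ROSAloxSTOPloxTdTomato reporter, and the 2 heterozygous libraries were Magoh lox/+ with the same Cre and the same reporter. Cre is driven by Nkx2-1, so recombination and the red tdTomato signal used for sorting are limited to cells that express Nkx2-1 or descend from cells that did. Every library, controls included, therefore carries Cre and the recombined reporter, and the comparison asks what the loss of a Magoh allele changes in that lineage.

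SR proteins bind exonic enhancers through RNA recognition motifs and recruit the splicing machinery through arginine and serine rich tails. Most of them limit their own abundance. When the protein is plentiful, its own pre-mRNA is spliced to include a poison exon, which carries an early stop codon, and the mRNA is then destroyed by nonsense-mediated decay (NMD). Magoh belongs to the core of the exon junction complex, the mark that splicing leaves on mRNA and that NMD reads, and SR genes stand where splicing and decay meet.

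In GENCODE release M21, the 10 genes have 85 annotated transcripts, of which 29 are protein coding, 15 are labelled as NMD targets and 26 retain an intron. Srsf11 has the most, 19 transcripts with 3 NMD targets and 11 retained introns, and Srsf10 is the member with 0 annotated NMD transcripts. The deposited values are counts per gene. Reads of coding and decay-prone transcripts of a gene are summed in them, and poison exon use itself was not measured here.

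For 6 members the stretch of a poison exon from its first base to its stop codon is shown, since its inclusion is what makes the mRNA a target of NMD. Each comes from an internal exon of an annotated NMD transcript that overlaps no exon of the gene's principal transcript, read 5′ to 3′ on the gene's strand from GENCODE M21 (GRCm38, the assembly behind mm10). The stop codon is in capitals. The Srsf3 exon is 456 nt long, the fourth of 7 exons of transcript Srsf3-201, and its stretch lies at chr17:29039454-29039487 (plus strand). The Srsf7 exon is 460 nt long (chr17:80205054-80205081, minus strand), and the Srsf6 exon is 268 nt long (chr2:162932815-162932966, plus strand). Those of Srsf11 and Srsf4 are 117 nt (chr3:158023310-158023359, minus strand) and 207 nt long (chr4:131884276-131884390, plus strand), and that of Srsf9 is 358 nt long (chr5:115328347-115328428, plus strand). For Srsf11 another such exon is annotated and is not shown.
Srsf3: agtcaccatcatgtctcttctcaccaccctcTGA
Srsf7: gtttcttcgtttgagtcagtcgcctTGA
Srsf6: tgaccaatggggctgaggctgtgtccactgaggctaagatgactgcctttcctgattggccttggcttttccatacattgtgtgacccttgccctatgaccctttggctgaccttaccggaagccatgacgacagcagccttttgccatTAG
Srsf11: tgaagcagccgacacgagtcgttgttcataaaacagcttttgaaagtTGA
Srsf4: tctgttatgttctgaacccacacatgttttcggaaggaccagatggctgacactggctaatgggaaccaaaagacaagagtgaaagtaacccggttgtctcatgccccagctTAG
Srsf9: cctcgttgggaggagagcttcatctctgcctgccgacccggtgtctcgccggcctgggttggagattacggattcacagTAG

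In Srsf3 and Srsf7 the stop follows soon after the exon begins, at position 32 of 456 and position 26 of 460, and in Srsf6 it comes at position 150 of 268. The stop codon is TGA in Srsf3, Srsf7 and Srsf11 and TAG in Srsf4, Srsf6 and Srsf9. Support for these transcripts is uneven. The Srsf3 transcript has the highest support level of GENCODE, 1, the Srsf11 transcript has level 3, and those of Srsf4, Srsf6 and Srsf9 have the lowest, 5. No level is given for that of Srsf7.

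The libraries held between 37.4 and 49.2 M counts each (M, 1e+06). Magoh itself was lower in each heterozygous library than in every control, at 81.0 ± 25.01 CPM (counts per 1e+06) in the control group (SD, n = 4) and 52.8 ± 6.05 CPM in the Magoh lox/+ group (SD, n = 2), without passing the test (edgeR quasi-likelihood test, adjusted p = 0.85). The MGE marker Nkx2-1 was present in all 6 libraries, at 346 to 575 CPM. Defining markers of other cell types were low: the summed level was 0 to 57.1 CPM for microglia and macrophages, 5.09 to 25.1 for endothelium, 0.061 to 152 for blood, 75.9 to 194 for mesenchyme, 3.15 to 10.1 for surface ectoderm and 27.3 to 64.7 for dorsal telencephalon. Krt14 was at 0 in all 6 libraries. Blood was highest in heterozygous library 1 and microglia in control 4. Heterozygous library 2, the lowest of the 6 for the SR family's summed level, was also the lowest for blood, microglia, mesenchyme and surface ectoderm, and the part of these markers was not tested.

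One difference between libraries cuts across the genotypes and touches nearly every value below. From 4 genes on the Y chromosome, 0 reads were counted in control 2 and in heterozygous library 1, and 3453 to 4291 in each of the other 4 libraries. Xist, an RNA of female cells, stood at 94.2 and 111 CPM in these 2 libraries and at 0 to 0.549 CPM in the other 4. By these genes the 2 libraries read as female and the other 4 as male. The sample labels used here state no sex. In control 2 and heterozygous library 1 long transcripts were also low relative to short ones, by an index (median deviation of genes of at least 8000 nt minus that of genes under 1000 nt). The index was -0.75 log2 units for control 2, -0.32 for heterozygous library 1 and 0.12 to 0.38 elsewhere. Summed progenitor markers (6 genes) moved with them, at 2833 and 2859 CPM against 3339 to 4178, but not as a block: Nes stood at 529 and 674 CPM against 1169 to 2059, and Fabp7 was higher, at 230.1 and 177 CPM against 59.8 to 123 (genes picked after their values were seen). The absence of Y-linked reads with Xist present, the length difference and the change in progenitor markers fall on the same 2 libraries. They cannot be told apart as groups. Members with length and GC trends removed are given further on, and the part of the progenitor markers was not tested. In bulk samples, fewer cells of a type and less RNA per cell cannot be told apart either.

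The family as a whole was abundant, and its group means were close in the 2 genotypes. Its summed level was 2599, 3317, 2628 and 2662 CPM in the 4 controls, in order, and 2936 and 2560 CPM in the heterozygous pair, which is 0.256 to 0.318% of all reads. The means were 2801 ± 345 CPM in the control group (SD, n = 4) and 2748 ± 266 CPM in the Magoh lox/+ group (SD, n = 2). Control 2 was the highest library and heterozygous library 2 the lowest, and the groups overlapped. Between the 2 libraries without Y-linked reads, heterozygous library 1 was lower than control 2 (2936 against 3317 CPM). Among those with Y-linked reads, heterozygous library 2 was below every control (2560 against 2599 to 2662 CPM). Each contrast rests on 1 heterozygous library, and neither was tested. The mean log2 CPM of the 10 members differed by -0.03 between genotypes, against an SD of 0.08 among the controls.

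Levels of different genes were compared per kilobase (kb) of merged exon. Srsf2, the speckle protein also known as SC35, was the highest at 175 ± 17.3 CPM per kb in the control group (SD, n = 4), 26.9 ± 0.289% of the family's summed CPM per kb. Srsf1, the founding member of the family, followed at 109 ± 20.2 CPM per kb. Srsf9 stood at 73.0 ± 6.37, Srsf7 at 64.2 ± 18.1, Srsf6 at 56.8 ± 7.53, Srsf3 at 54.5 ± 14.6 and Srsf4 at 47.1 ± 15.5 CPM per kb. Srsf10 stood at 29.4 ± 4.03, Srsf5 at 24.2 ± 2.95 and Srsf11, the lowest, at 16.8 ± 1.70 CPM per kb.

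Part of this order was the same in every library. Srsf2 was above Srsf1, and Srsf1 above Srsf9, in 6 of 6 libraries, and so was Srsf10 above Srsf5 and Srsf5 above Srsf11. Srsf10 and Srsf5 were near ties in controls 3 and 4 (26.6 against 26.4 and 27.0 against 26.7 CPM per kb). Their mean difference over the controls, 5.13 with an SD of 5.83, was within its spread. From Srsf9 to Srsf4, neighbours did not differ beyond their spread. Srsf9 exceeded Srsf7 in 4 of 6 libraries, Srsf6 exceeded Srsf3 in 4, and Srsf3 exceeded Srsf4 in 2. Srsf4 exceeded Srsf10 in 5 of 6, the exception being control 2. The order depends on the length used, most of all for Srsf3. Its merged exons reach 7.899 kb, but its principal transcript is 2618 nt long, and per kb of principal transcript Srsf3 stood at 165 ± 44.2 CPM, second to Srsf2 at 272 ± 26.9 (SD, n = 4; a length chosen after seeing the data). On that scale Srsf1 fell to place 3 and Srsf5 (61.6) stood above Srsf10 (54.8).

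**Figure D1:**
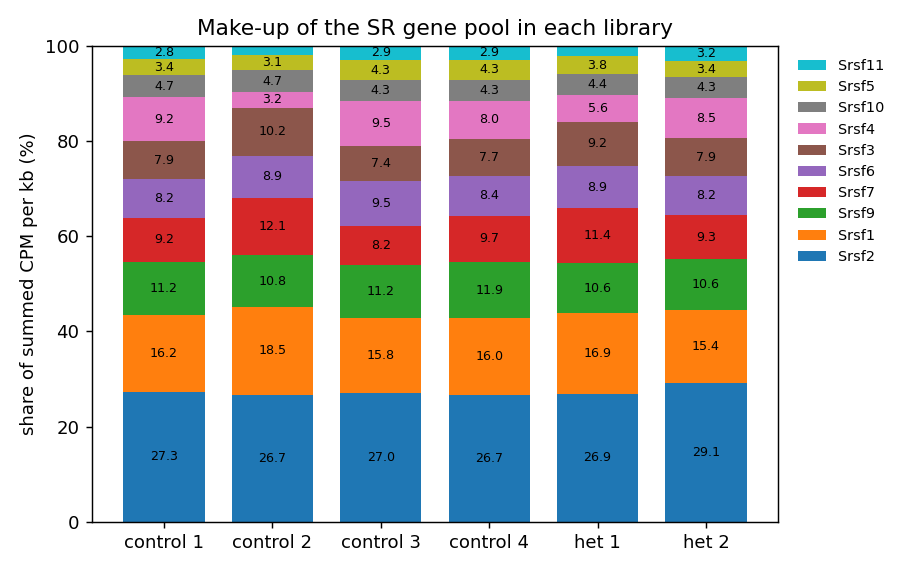
Share of each SR gene in the family's summed CPM per kb (%, vertical axis) for the 6 libraries. Srsf2 holds 26.7 to 29.1% in every library, while Srsf4 falls from 8.03 to 9.45% in controls 1, 3 and 4 to 3.23% in control 2 and 5.62% in heterozygous library 1.

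No SR gene was called between control and Magoh lox/+ cells. By edgeR, 0 of the 10 passed an adjusted p of 0.05, where 0 of 16495 genes did (0%), and 0 had an unadjusted p under 0.05, where 5.72% of genes did. DESeq2 called 0 members, against 0.455% of genes, and limma-voom called 0 members and 0 genes of the whole table. Each member had an edgeR adjusted p of 0.999. For 0 members did the 2 heterozygous libraries lie outside the range of the 4 controls, where this held for 14.3% of genes. Heterozygous means were 0.928 to 1.03 times the control means. Log2 fold changes were above 0 for 4 members, where 46.1% of genes were, and below 0 for 6, with a median of -0.06, beside -0.03 over all tested genes. In size they had a median of 0.06 log2 units, beside 0.22 over all tested genes and 0.12 over the 2242 genes of at least 100 CPM in controls.

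A p above the threshold does not show that the levels were equal, so the intervals set the limit. Over the 10 members the 95% intervals of the log2 fold change reached from -0.87 to 0.70, both bounds being those of Srsf4. Changes inside a member's interval are not excluded by this fit. The intervals depend on which libraries enter. The SE of Srsf4 was 0.34 with all 6 libraries, 0.16 without control 2, 0.45 without heterozygous library 1 and 0.46 without heterozygous library 2. Leaving out heterozygous library 1 placed the remaining heterozygous library outside the control range for 5 members (Srsf1, Srsf6, Srsf9 and Srsf10 below, Srsf11 above), beside 43.3% of all genes, and 0 members passed the test. The narrowest interval was that of Srsf9, with a half-width of 0.37, and the widest that of Srsf4, with 0.79.

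Srsf1 and Srsf9 are close relatives, each with a second, atypical RNA recognition motif. Srsf1 (ENSMUSG00000018379; chromosome 11, 88047373 to 88053755, plus strand, GRCm38) selects proximal 5′ splice sites and also promotes NMD. It stood at 562, 793, 555 and 571 CPM in the controls (libraries 1 to 4) and at 651 and 528 CPM in the Magoh lox/+ libraries. Control 2 was far above the other controls, heterozygous library 1 lay between it and them, and heterozygous library 2 was the lowest of the 6. The log2 fold change was -0.07 (SE 0.21). Srsf9 (ENSMUSG00000029538; chromosome 5, 115327177 to 115333080, plus strand), which has a short RS tail, varied less, at 112, 135, 114 and 123 CPM in controls and 119 and 105 CPM in heterozygous cells. Its log2 fold change of -0.11 (SE 0.16) was the largest in size among the members, and the groups overlapped.

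Srsf2 (ENSMUSG00000034120; chromosome 11, 116849901 to 116853094, minus strand) binds enhancers with either G-rich or C-rich sequence and is a standard marker of nuclear speckles. It stood at 488, 593, 492 and 492 CPM in controls and 538 and 514 CPM in heterozygous cells, a log2 fold change of 0.03 (SE 0.16). Apart from control 2, the controls were nearly identical, with a coefficient of variation (SD over mean) of 0.444% over controls 1, 3 and 4. That value is no larger than counting error at these read numbers. Without control 2, the 2 heterozygous libraries lay above all remaining controls for Srsf2, the sole member for which they lay outside, where 35.2% of all genes then did. Mettl23 is annotated on the opposite strand over the whole Srsf2 locus and Mfsd11 over 655 nt of it. The sources used here do not say whether counting used strand, so reads of these 3 genes cannot be told apart with certainty.

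Srsf3 and Srsf7 each have a single recognition motif, and both link splicing to mRNA export through the receptor NXF1. Srsf3 (ENSMUSG00000071172; chromosome 17, 29032628 to 29043373, plus strand) stood at 380, 603, 358 and 381 CPM in controls and 491 and 375 CPM in heterozygous cells. Srsf7 (ENSMUSG00000024097; chromosome 17, 80200080 to 80207307, minus strand), which also has a zinc knuckle, stood at 197, 322, 179 and 214 CPM in controls and 275 and 197 CPM in heterozygous cells. In both genes control 2 was highest, heterozygous library 1 came next and the other 4 libraries lay close together. Their log2 fold changes were 0.01 (SE 0.26) and 0.05 (SE 0.27). The ratio of Srsf3 to Srsf7 per kb was 0.80 to 0.901 in all 6 libraries, although each gene spanned 1.68-fold and 1.80-fold from its lowest to its highest library.

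Srsf4, Srsf5 and Srsf6 share a pair of recognition motifs and are the larger classical SR proteins. Srsf4 (ENSMUSG00000028911; chromosome 4, 131873617 to 131901706, plus strand) was the most variable member. It stood at 198, 86.7, 207 and 178 CPM in controls and 135 and 182 CPM in heterozygous cells, with control 2 lowest and heterozygous library 1 next. Its coefficient of variation over the 4 controls was 33.0%, and 7.53% without control 2. The log2 fold change was -0.08 (SE 0.34). Srsf6 (ENSMUSG00000016921; chromosome 2, 162931528 to 162937121, plus strand) went the other way, at 239, 321, 280 and 253 CPM in controls and 290 and 237 CPM in heterozygous cells, a log2 fold change of -0.05 (SE 0.19). Srsf5 (ENSMUSG00000021134; chromosome 12, 80945504 to 80950507, plus strand) followed neither pattern. It stood at 81.4, 93.3, 105 and 107 CPM in controls and 102 and 81.6 CPM in heterozygous cells, with control 1 and heterozygous library 2 lowest, and had a log2 fold change of -0.07 (SE 0.18).

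Srsf10 and Srsf11 are the less typical members. Srsf10 (ENSMUSG00000028676; chromosome 4, 135855747 to 135869908, plus strand) acts as a general splicing repressor when dephosphorylated, as in mitosis or heat shock. It stood at 200.007, 247, 186 and 189 CPM in controls and 208 and 179 CPM in heterozygous cells, a log2 fold change of -0.09 (SE 0.18). Srsf11 (ENSMUSG00000055436; chromosome 3, 158010473 to 158036639, minus strand) has been linked to the inclusion of neuronal microexons. It stood at 141, 122, 152 and 152 CPM in controls and 127 and 162 CPM in heterozygous cells, a log2 fold change of 0.03 (SE 0.18). Control 2 was the highest library for Srsf10 and the lowest for Srsf11, and heterozygous library 2 was the reverse.

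**Figure D2:**
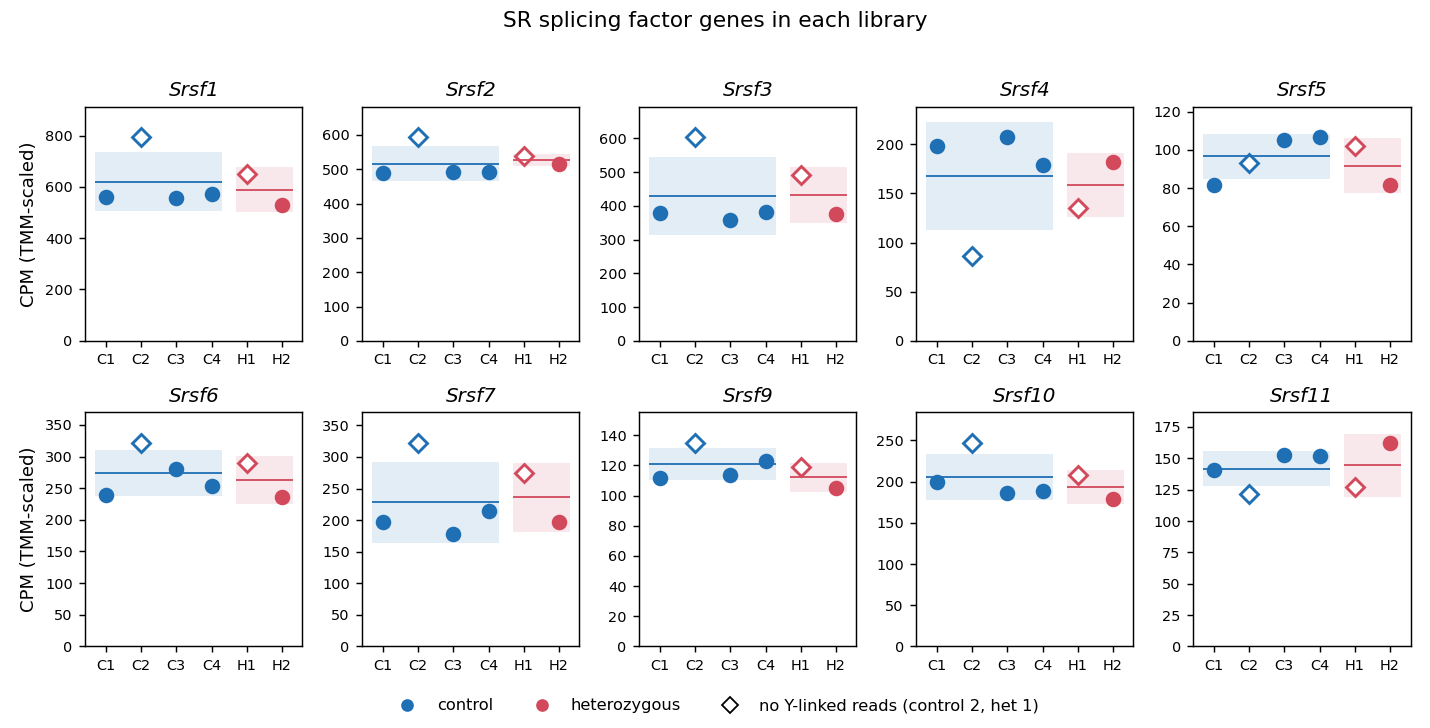
CPM of each SR gene (TMM-scaled, vertical axis from 0) in controls 1 to 4 (C1 to C4) and heterozygous libraries 1 and 2 (H1, H2); lines are group means, bands 1 SD, and open diamonds the 2 libraries without Y-linked reads. Control 2 is the highest library in 7 panels and the lowest in 2, Srsf4 and Srsf11.

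Within each kind of library the genotype difference rested on 1 heterozygous library. In the libraries without Y-linked reads (heterozygous 1 minus control 2, without replicates) it was 0.64 log2 units for Srsf4, and it ran from -0.30 for Srsf3 to 0.13 for Srsf5 in the others. Among the other 4 libraries (heterozygous 2 minus controls 1, 3 and 4) it ran from -0.25 for Srsf5 to 0.13 for Srsf11, and it was -0.10 for Srsf4. Srsf1, Srsf6, Srsf9 and Srsf10 were lower in heterozygous cells in both contrasts and Srsf11 was higher in both. For the other 5 the sign differed. An interaction fit of the difference between the contrasts takes its spread from controls 1, 3 and 4 alone, since the other combinations hold 1 library each, so a p above the threshold in it says little. In it 0 members passed (edgeR, smallest adjusted p = 0.252, for Srsf4), where 0 of 16495 genes did. With an unadjusted p under 0.05, Srsf4 was the sole member, against 14.4% of genes.

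**Figure D3:**
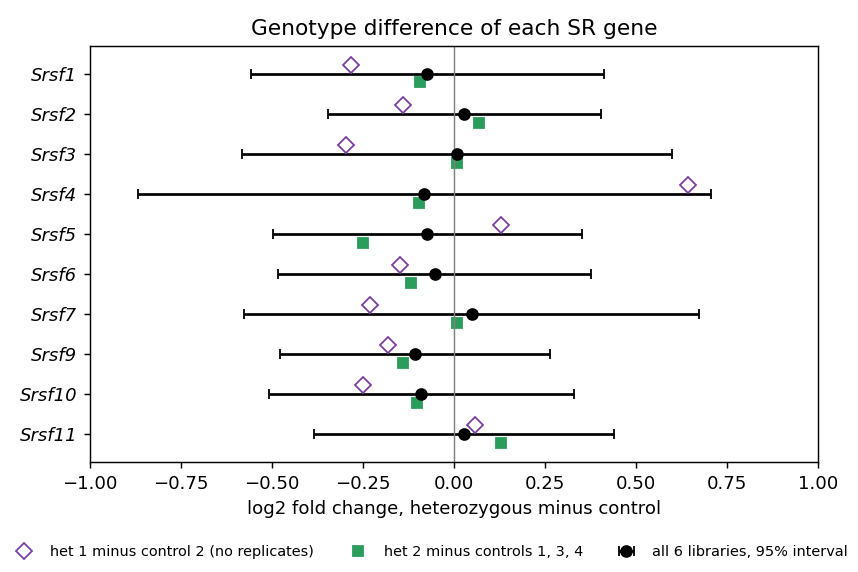
Log2 fold change of each SR gene, heterozygous minus control (horizontal axis). Black points with bars are the edgeR estimate and 95% interval over 6 libraries, diamonds heterozygous library 1 minus control 2, and squares heterozygous library 2 minus controls 1, 3 and 4; all 10 intervals include 0.

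Most members separated by kind of library, and none by genotype. Of the 10 members, 6 were higher in both libraries without Y-linked reads than in any of the other 4, against 19.4% of all genes, and 2 were lower in both, against 19.8%. The 6 were Srsf7 (1.52-fold by means), Srsf3 (1.46-fold), Srsf1 (1.30-fold), Srsf6 (1.21-fold), Srsf10 (1.21-fold) and Srsf2 (1.14-fold). The lower ones were Srsf4, whose mean was 111 CPM against 191 CPM, and Srsf11, at 124 against 152 CPM. Srsf5 and Srsf9 overlapped. In all 8 genes that separated, control 2 was the extreme library and heterozygous library 1 came next, the same order as in the length index. The share of all separating genes with that order was not computed, so it is not read as a trait of the members.

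Length and base composition of the members are given beside these differences. Across the 10, the rank correlation of merged exon length with the deviation of control 2 from the other controls was 0.12 (Spearman, a description over 10 genes of the same libraries). Merged exons can be far longer than the principal transcript, as for Srsf3, and the length of the principal transcript was not used here. Srsf4 and Srsf7 have nearly equal exon lengths, 3561 and 3550 nt, and control 2 stood at 0.445 times the other controls for Srsf4 and 1.64 times for Srsf7. These 2 genes were picked after their values were seen, and the cause of the difference was not tested. Their base composition differs. The longest transcript of Srsf4 has 53.0% G and C, the highest of the 10, and that of Srsf7 41.6%. After each library's trends on length and GC content were removed, the libraries without Y-linked reads still stood 0.60 log2 units higher for Srsf3, 0.43 higher for Srsf7, and the difference for Srsf4 was -0.74. For Srsf11 the difference shrank from -0.29 to -0.05 and for Srsf9 from 0.16 to -0.02.

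**Figure D4:**
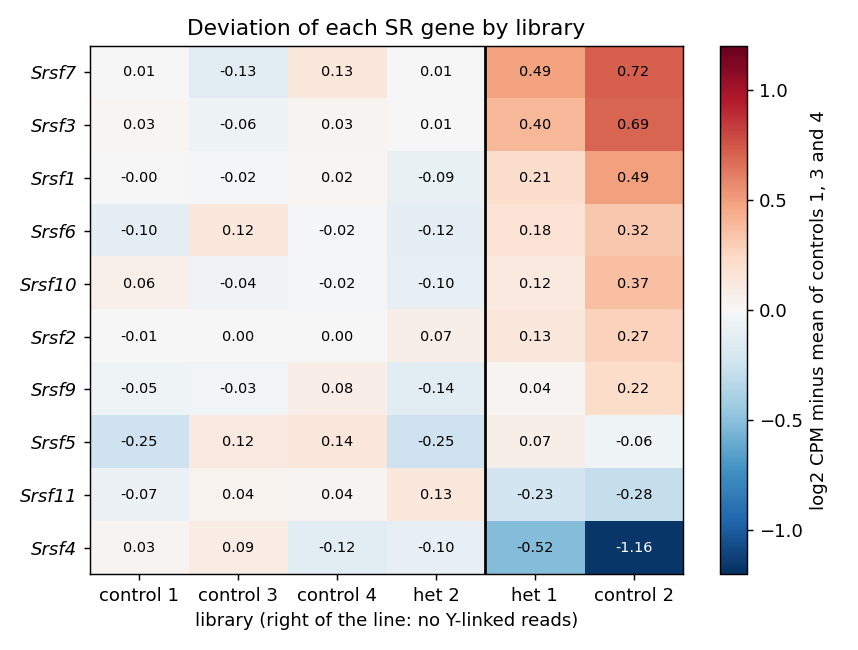
Log2 CPM of each SR gene minus its mean over controls 1, 3 and 4 (colour and printed value), by library; the 2 columns right of the line are the libraries without Y-linked reads. The right columns run from 0.72 for Srsf7 to -1.16 for Srsf4 in control 2, while the left columns stay between -0.25 and 0.14.

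Members moved with or against each other over the libraries. Over the 6 libraries and 45 pairs of members, Pearson's r of log2 CPM was above 0.8 for 17 pairs and below -0.8 for 11. These values are a description, since all points share the libraries and the difference between their kinds. Srsf3 and Srsf7 were the most alike (r = 0.98), followed by Srsf1 and Srsf3 (r = 0.98). The most opposed were Srsf3 and Srsf4 (r = -0.99). The ratio of Srsf3 to Srsf4 per kb was 0.862, 3.14, 0.78 and 0.963 across the controls and 1.64 and 0.931 in the heterozygous libraries. Of the pairs that include Srsf4, r was above 0.8 for the one with Srsf11 (0.83).

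Apart from control 2, the members varied little among controls. Their median coefficient of variation was 13.5% over 4 controls, beside 24.02% for all tested genes and 17.2% for those of at least 100 CPM. Over controls 1, 3 and 4 it was 4.65%, beside 13.95% and 7.40%. The lowest values there were those of Srsf2 (0.444%) and Srsf1 (1.47%), and Srsf5 was the most variable, at 14.5%.

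Among genes for proteins that work with the SR family, in 4 lists, 0 passed in either direction between genotypes (edgeR; 0 had an unadjusted p under 0.05, and DESeq2 called 0). Of 26 SR-like regulators, which include the large speckle scaffolds Son and Srrm2, 22 had a fitted value lower in Magoh lox/+ cells than in controls. Over all tested genes 8897 of 16495 did. The median log2 fold change of the list was -0.13, beside -0.03 over all tested genes. Srrm2 stood at 997 ± 386 CPM in the control group (SD, n = 4) and 769 ± 224 CPM in the Magoh lox/+ group (SD, n = 2), and Ppig, a cyclophilin with an RS domain, at 80.4 ± 31.03 and 54.9 ± 18.1 CPM. In control 2 Srrm2 was at 468 CPM and Ppig at 35.8 CPM. Both were below both heterozygous libraries (610 and 927 CPM for Srrm2, 42.1 and 67.8 CPM for Ppig). For 18 of the list's 26 genes, both libraries without Y-linked reads lay below the other 4, where this held for 19.8% of all genes. The list's median exon length was 7297 nt, beside 4399 nt for the SR family.

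Of 13 tested kinases, phosphatases and importers that act on SR proteins, 8 were below 0, where 8897 of all 16495 tested genes were. The median of the 13 was -0.14. The kinase Clk3, which phosphorylates RS tails, stood at 61.7 ± 7.54 CPM in the control group (SD, n = 4) and 74.8 ± 8.14 CPM in the Magoh lox/+ group (SD, n = 2), with a log2 fold change of 0.28 (SE 0.17). Its heterozygous libraries lay above every control, which held for 6.17% of all genes. Clk1 stood at 23.7 ± 4.38 and 19.6 ± 5.15 CPM. Of 27 hnRNP and PTB proteins, which often oppose SR proteins, 14 were above 0 and 13 below. Ptbp1, the repressor of neuronal exons in progenitors, stood at 520.05 ± 58.4 CPM in the control group (SD, n = 4) and 406 ± 23.3 CPM in the Magoh lox/+ group (SD, n = 2). Its heterozygous libraries, at 422 and 389 CPM, lay below every control, which held for 8.14% of all genes, and its log2 fold change was -0.36 (SE 0.17; edgeR, adjusted p = 0.869). Summed markers of cycling cells (6 genes) were likewise lower in the heterozygous libraries (952 and 1019 CPM, against 1074 to 2193 in controls). Those of neurons (8 genes) were higher (3519 and 4313 CPM, against 2085 to 3170). The fitted value was below 0 for all 6 cycling genes (median log2 fold change -0.55). It was above 0 for all 8 neuron genes (median 0.55), where 46.1% of all tested genes were above 0. Fewer genes separated the groups fully. Both heterozygous libraries lay below every control for 2 of the 6 cycling genes, and above every control for 4 of the 8 neuron genes. Mki67 stood at 66.2 CPM in control 2, below the heterozygous libraries (95.4 and 176 CPM). The part of these markers in the values above was not tested. Hnrnph3 stood at 123 ± 13.7 and 147 ± 11.3 CPM.

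Among 13 NMD and exon junction factors the median was 0.01, with 7 above 0, where 46.1% of all tested genes were, and 6 below. The NMD kinase Smg1 stood at 87.9 ± 29.8 CPM in the control group (SD, n = 4) and 64.3 ± 0.729 CPM in the Magoh lox/+ group (SD, n = 2), and Casc3, an outer protein of the exon junction complex, at 131 ± 20.1 and 149 ± 9.24 CPM. Smg1 stood at 44.4 CPM in control 2, below both heterozygous libraries (63.8 and 64.8 CPM), and at 96.2 to 112 CPM in the other controls. For 8 of the 13 factors both libraries without Y-linked reads lay below the rest, against 19.8% of all genes. For 1 factor both lay above, against 19.4%. Of the 79 tested genes in the 4 lists, those whose log2 CPM followed the SR family mean most closely over the 6 libraries were Hnrnpf (Pearson's r = 0.96), Ppp1cb (r = 0.94) and U2af1 (r = 0.93). Like most SR members, Hnrnpf and Ppp1cb were highest in control 2, at 340 and 321 CPM against 242 to 260 and 188 to 195 CPM in the other controls.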

How the data were processed

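RNA-seq of 6 libraries was analysed (4 control, 2 heterozygous for floxed Magoh). The tools named are Trim Galore, STAR and HTSeq, with build mm10, per the submitters' processing notes. Tool versions, annotation and strandedness were not given in the sources used here. The authors deposited raw read counts for 38561 genes, with 0 rows that name no gene, and a signal table of 18065 genes, whose values are those counts divided by a size factor per library. Column codes matched the sample titles.

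Raw counts were tested on the whole table with edgeR 4.0.16 (filterByExpr, TMM scaling, robust glmQLFit, two-sided glmQLFTest) in R 4.3.3. P-values were adjusted over 16495 genes by Benjamini-Hochberg, with a threshold of 0.05. SE is the fold change over the square root of F. A member's interval uses the same fit's degrees of freedom. Alternatives used DESeq2 1.42.0, limma 3.58.1 (voom, and trend on log2 of the authors' values plus 1), other scalings, filters and covariates, loess removal of length and GC trends (98.6% of genes had values), and each library left out. GENCODE M21 gave coordinates and lengths for 36639 gene IDs. Another gene is annotated over 4 members' loci, protein coding for Srsf2 alone. On the same strand, A930004J17Rik lies over 4610 nt of the Srsf4 locus and Gm43362 over 2470 nt of the Srsf11 locus. The effect of these overlaps on the counts was not tested.

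Members, lists and alternatives were chosen with earlier results of these data known. All 10 members and Magoh are named, and from each other list the 2 genes of smallest p and, over all lists, the 3 closest to the family mean. Separate embryos are not stated for the samples, and the p-values therefore reflect the spread of these samples alone, which may be technical. An exact permutation test of 4 against 2 cannot go below p = 0.0667 (two-sided). Each member had 3035 to 28497 reads per library. At this depth counting error is small beside the spread over the 4 controls. It is not small beside the 0.444% of Srsf2 over controls 1, 3 and 4.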

Additional observations from a re-analysis of the deposited data

Results flagged for a closer look

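Control 2 stood apart from the other 3 controls for Srsf1, Srsf2, Srsf3 and the summed level of the family. Its gap to the nearest control was 0.931 of the controls' whole range for Srsf1, 0.962 for Srsf2, 0.906 for Srsf3 and 0.912 for the summed CPM, each above Dixon's 95% critical value for 4 samples. In each case control 2 was the highest. Chance gives such a gap in about 5% of groups, and the members share the library, so these are not separate events. The other members and the family score, looked at in the same way, stayed below the critical value. Control 2 is also the control without Y-linked reads and with the lowest share of long transcripts. It widened the spread of genes at large: the median coefficient of variation of all tested genes was 24.02% over 4 controls and 13.95% over controls 1, 3 and 4. The share of all genes with such a gap was not computed, so it is not known whether the gaps are particular to these members.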

How the results depend on the processing

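Over 19 alternatives for each of the 10 members, 0 of 190 values passed the test. Of the whole table, 0 genes passed by limma-voom, by limma-trend, with length and GC trends removed or with Y-linked reads as a covariate. DESeq2 called 75 genes. The lack of calls is therefore not particular to the members. Of the 190 values, 159 had the direction of the reported value and 31 were reversed. With length and GC trends removed, the signs turned for Srsf1 (0.050), Srsf4 (0.016), Srsf5 (0.056), Srsf6 (0.058) and Srsf10 (0.027), the members' median became 0.057 and the family score difference 0.089. With Y-linked reads as a covariate they turned for Srsf2 (-0.015), Srsf3 (-0.11), Srsf4 (0.20) and Srsf7 (-0.090). In that fit the median was -0.11, and Srsf4 and Srsf11 (0.099) alone were above 0. Its SEs were 0.10 to 0.18, against 0.16 to 0.34 in the main fit, and its smallest adjusted p was 0.59 (edgeR, Srsf1). It assumes the same genotype difference in both kinds of library. The genotypes share 1 code number only, which the labels do not explain, so the samples are not paired by design. With the code number as a replicate block the signs turned for Srsf3 (-0.019), Srsf5 (0.0034) and Srsf7 (-3.2e-05), and 0 members passed. The SEs under the block were 0.65 to 0.70, so its intervals pass a 2-fold change.

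With each library left out in turn, log2 fold changes reached from -0.22 to 0.079 for Srsf1, -0.19 to 0.23 for Srsf3, -0.32 to 0.13 for Srsf4, -0.23 to 0.073 for Srsf5, -0.20 to 0.081 for Srsf6, -0.20 to 0.27 for Srsf7, -0.19 to 0.023 for Srsf10 and -0.17 to 0.21 for Srsf11. The median ran from -0.19 (without heterozygous library 1) to 0.060 (without heterozygous library 2). The members with heterozygous libraries outside the control range numbered 0 to 5. The 5 (Srsf1, Srsf6, Srsf9, Srsf10 and Srsf11) came without heterozygous library 1, when 43.3% of all genes did so, and the lone sample left is assumed to vary like the controls. Without control 2 it was Srsf2, and the median was 0.035. With the 2 libraries without Y-linked reads left out together (chosen after seeing the data), 0 members passed and the median was -0.09. The cause of these shifts was not tested.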
